A study of Homo sapiens with 6 samples.

Results

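Heparan sulfate proteoglycans are proteins that carry long sulfated sugar chains, and the genes described here encode such core proteins and the enzymes that edit the chains after they leave the cell's secretory route. The set holds 10 genes of the 21872 gene rows in the table, taken by symbol: the syndecans Sdc1, Sdc2 and Sdc4, the glypicans Gpc1, Gpc3 and Gpc4, perlecan (Hspg2), the sulfatases Sulf1 and Sulf2, and heparanase (Hpse). All 10 were found in the table. They were chosen with their levels in these same libraries already known, so their values in knockout and control are a description and carry no test.

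The cells were of MOC2, a line grown from a carcinogen-induced mouse oral tumour and labelled as head and neck squamous carcinoma, and RNA-seq was done on 3 HuR knockout and 3 control libraries. The knockout cells had received lentiviral particles with CRISPR/Cas9 against HuR, and the control cells had received control CRISPR/Cas9 particles. HuR, the product of Elavl1, attaches to AU-rich stretches of many mRNAs. The labels' protocols describe the isolation of a single clone, and nothing says that the libraries of a group came from separate clones, so the spread between libraries may be partly technical. The titles of the knockout libraries call them knockdown, and the labels give human as the species although the gene symbols are those of mouse.

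A syndecan spans the cell membrane, a glypican is held on the outer surface by a lipid anchor, and perlecan is secreted into basement membranes. Their heparan sulfate chains bind growth factors, morphogens, chemokines and matrix proteins, and the pattern of sulfate groups on a chain affects which of these it binds. Sulf1 and Sulf2 are secreted or surface-bound enzymes that remove 6-O-sulfate groups from finished chains, and heparanase cuts the chains into fragments. In squamous epithelia Sdc1 is the most familiar of the core proteins.

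Some facts of the whole series bear on the values below, which are given in the order of the library numbers 1, 2 and 3. Each library held 16164136 to 21294330 counts as deposited. Elavl1 mRNA was at 116, 114 and 105 CPM (read counts scaled for depth, on library totals adjusted by the TMM method) in knockout, against 107, 120 and 117 CPM in the 3 control libraries, so its level does not check the labels. Knockout library 3 stood apart: its log2 CPM correlated with knockout libraries 1 and 2 at 0.924 and 0.931 across genes, against 0.978 between those 2 libraries and 0.987 to 0.992 between control libraries. Of 8 epithelial markers, 5 of the 7 tested fell, and the 8 summed to 1357 to 2383 CPM in knockout, against 5048 to 6532 CPM in control. Krt14 and Dsp were tested and did not pass. Krt5, which was not tested, went the other way, with 42, 10 and 3 counts in knockout, against 1, 1 and 0 counts in control. Of 8 fibroblast markers, 3 of the 4 tested rose, and their sum was 408 to 430 CPM in knockout and 3.73 to 8.42 CPM in control, although Col1a2, Dcn, Lum and Postn stayed under 1 CPM in every library, Lum at 0. All 6 endothelial markers stayed under 1 CPM in every library. Of 6 macrophage and leukocyte markers 5 did so, with Adgre1 at 0, and Cd68 reached 36.9 CPM in knockout library 3. The 4 muscle markers summed to 0.735 to 1.65 CPM in knockout and 0.196 to 0.304 CPM in control. The part of these markers in the results below was not tested.

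Among the 10 genes, 4 were higher in every knockout library than in every control library (Sulf2, Hspg2, Hpse and Sdc2), and 3 were lower in every knockout library (Gpc4, Gpc3 and Sdc1). Sdc4 and Gpc1 overlapped between the groups, and Sulf1 had no count anywhere. Over all 12293 genes with enough counts to test, 57.6% did not overlap between the groups, 29.7% higher and 27.9% lower in knockout. The filter on low counts kept 8 of the 10 genes, and Gpc3 and Sulf1 were left out by it. In the edgeR fit 4 of these 8 were called higher and 2 lower, beside 35.7% of all genes tested called in either direction, 20.3% higher and 15.4% lower. In such bulk libraries, fewer cells with a transcript and less of it per cell cannot be told apart. Since the genes were picked on this same contrast, nothing is read from either count.

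**Figure D1:**
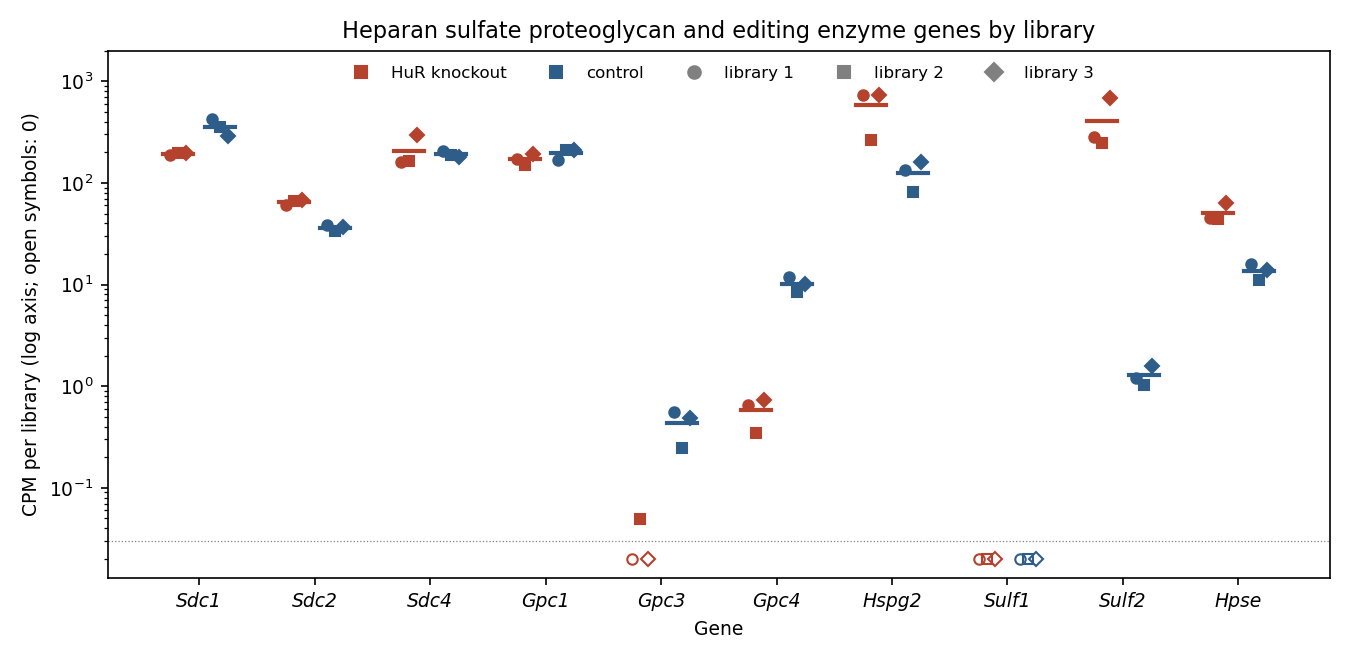
CPM of the 10 genes in each library on a log axis, with HuR knockout in red left of control in blue, symbols for the library numbers, horizontal bars for the means of groups with no library at 0, and open symbols at the bottom for libraries at 0. Sulf2 lies between 246 and 691 CPM in knockout and between 1.03 and 1.58 CPM in control, and Gpc4 is under 1 CPM in every knockout library.

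Of the editing enzymes, Sulf2 differed most between the groups. It was at 285, 246 and 691 CPM in the 3 knockout libraries, against 1.22, 1.03 and 1.58 CPM in the 3 control libraries. The group means were 407 ± 247 CPM in knockout and 1.28 ± 0.279 CPM in control (SD, n = 3 each). Sulf2 was thus near the lower end of detection in control cells, where its counts were 26, 21 and 26, and well counted in knockout cells, with 5225, 5015 and 11286 counts. The log2 fold change, knockout over control, was 8.32 (SE 0.573), or 319.9-fold. Knockout library 3 had the highest level, and without it the fold change was 209.7.

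Sulf1, whose protein removes the same 6-O-sulfate groups, had 0 counts in all 6 libraries. A count of 0 allows up to 0.147 to 0.184 CPM in the knockout libraries and 0.140 to 0.182 CPM in the control libraries, taking 3 counts as the limit and covering counting error only. At this depth Sulf2 was therefore the only one of this sulfatase pair detected, in both groups.

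Hpse, the heparanase gene, was also higher in knockout. It was at 45.5, 43.8 and 63.3 CPM in the 3 knockout libraries, against 16.1, 11.1 and 13.8 CPM in the 3 control libraries. The lowest knockout library stood above the highest control library by a wide margin, and the mean was 50.9 ± 10.8 CPM in knockout and 13.6 ± 2.51 CPM in control (SD, n = 3 each). The log2 fold change was 1.90 (SE 0.219), or 3.73-fold. Its inactive relative Hpse2 had no count in any library.

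The syndecans moved in different directions. Sdc1, which binds growth factors and matrix on epithelial cells, was at 188, 198 and 198 CPM in the 3 knockout libraries, against 429, 353 and 292 CPM in the 3 control libraries. All 3 knockout libraries lay below the lowest control library and close to each other, while the control libraries were spread. The log2 fold change was -0.88 (SE 0.166), a 1.84-fold lower level in knockout.

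Sdc2, a syndecan best known from mesenchymal cells, was at 61.2, 66.6 and 67.6 CPM in knockout libraries, against 38.4, 33.6 and 37.0 CPM in control libraries. Here the groups did not overlap and neither was spread, and the log2 fold change was 0.84 (SE 0.119), or 1.79-fold. Sdc4, a syndecan of focal adhesions, was at 162, 165 and 296 CPM in the 3 knockout libraries, against 204, 189 and 180 CPM in the 3 control libraries. For Sdc4, knockout libraries 1 and 2 lay below every control library and knockout library 3 above them all. Its log2 fold change was 0.12, with a 95% interval of -0.49 to 0.73, and without knockout library 3 it was -0.22.

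**Figure D2:**
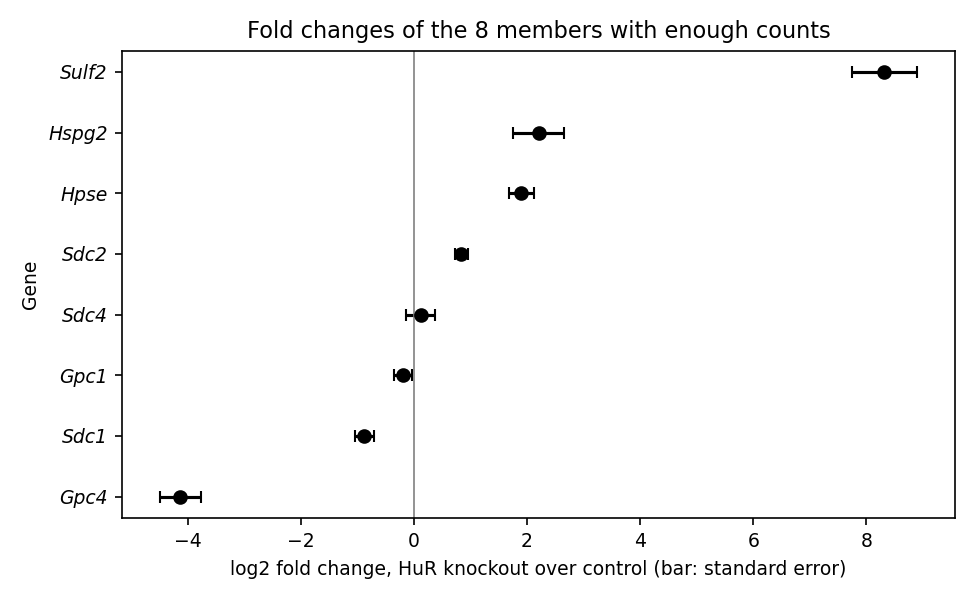
Log2 fold change, HuR knockout over control, of the 8 genes with enough counts, each with its standard error as a bar (3 libraries per group). Sulf2 lies at 8.32 and Gpc4 at -4.13, with Sdc4 and Gpc1 near 0.

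Of the glypicans, Gpc4 was nearly lost in knockout and Gpc1 overlapped between the groups. Gpc4, a surface glypican that binds Wnt and FGF ligands, was at 0.654, 0.343 and 0.735 CPM in the 3 knockout libraries, against 11.7, 8.50 and 10.1 CPM in the 3 control libraries. Every knockout library was below 1 CPM, and the log2 fold change was -4.13 (SE 0.360), a 17.5-fold lower level. The knockout counts of Gpc4 were only 12, 7 and 12, so the size of this fold is imprecise. Knockout library 2 lay under the low-count filter's cut of 0.52 CPM, so the control libraries brought Gpc4 past the filter. Gpc3, an oncofetal glypican, was hardly present in either group, with 0, 1 and 0 counts in knockout libraries, against 12, 5 and 8 counts in control libraries. Its summed counts made it 23.7 times lower in knockout, with an exact 95% Poisson interval of 3.87 to 972 that covers counting error only.

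Gpc1, the remaining glypican of the set, was at 171, 151 and 194 CPM in the 3 knockout libraries, against 169, 212 and 209 CPM in the 3 control libraries. The lowest control library stood within the knockout range, and the log2 fold change was -0.19 with a 95% interval of -0.56 to 0.17. The interval leaves room for a modest decrease and for a small increase.

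Hspg2 encodes perlecan, a very large secreted core protein of basement membranes. It was at 728, 267 and 740 CPM in the 3 knockout libraries, against 134, 81.3 and 160 CPM in the 3 control libraries. Library 2 was the lowest of its group on both sides, and the lowest knockout library still exceeded the highest control library. The mean was 579 ± 270 CPM in knockout and 125 ± 39.9 CPM in control (SD, n = 3 each), a log2 fold change of 2.21 (SE 0.448), or 4.63-fold.

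The 8 genes were not equally steady among the knockout libraries. The coefficient of variation over the 3 knockout libraries was 60.6% for Sulf2, 46.6% for Hspg2, 36.8% for Sdc4 and 35.8% for Gpc4, beside a median of 22.8% over all genes tested. It was 3.08% for Sdc1, 5.30% for Sdc2 and 12.3% for Gpc1. Knockout library 3 was the highest of its group for 7 of the 8 genes. Sdc1, with values within 1.06-fold of each other in knockout, was the exception. Gpc4 was among the 7, but its knockout counts were only 12, 7 and 12. Libraries 1 and 3 thus had the same count, and counting error bears on its order and spread. In control the coefficients ran up to 31.9% for Hspg2, with a median over all genes tested of 9.01%.

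Levels of different genes are not compared here, since no mouse transcript lengths were used. A ratio of the counts of 2 genes within a library can be set against the same ratio in another library, however, and depends neither on length nor on library scaling. The pairs were picked after the values had been seen. The ratio of Sdc1 to Sdc2 was 3.07, 2.98 and 2.93 in knockout libraries 1, 2 and 3, against 11.2, 10.5 and 7.89 in control libraries 1, 2 and 3, a shift of 3.26-fold away from Sdc1. The ratio of Sdc1 to Sdc4 was 1.16, 1.20 and 0.669 in knockout and 2.10, 1.87 and 1.62 in control. Both ratios were lower in every knockout library than in any control library.

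Sdc3 and Gpc6, core protein genes outside the set, changed these balances further. The ratio of Sdc3 to Sdc1 was 9.62 times higher in knockout. The ratio of Gpc6 to Gpc4 was 44.3, 91.6 and 63.6 in knockout libraries 1, 2 and 3, against 0.669, 0.977 and 0.916 in control libraries 1, 2 and 3. Control cells thus gave fewer reads for Gpc6 than for Gpc4, while in knockout cells the Gpc6 count exceeded the Gpc4 count in each library by over an order of magnitude. The Gpc4 counts in knockout were only 12, 7 and 12, so the size of these ratios is imprecise. Against Gpc1, Gpc6 was 4.72 times higher in knockout.

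**Figure D3:**
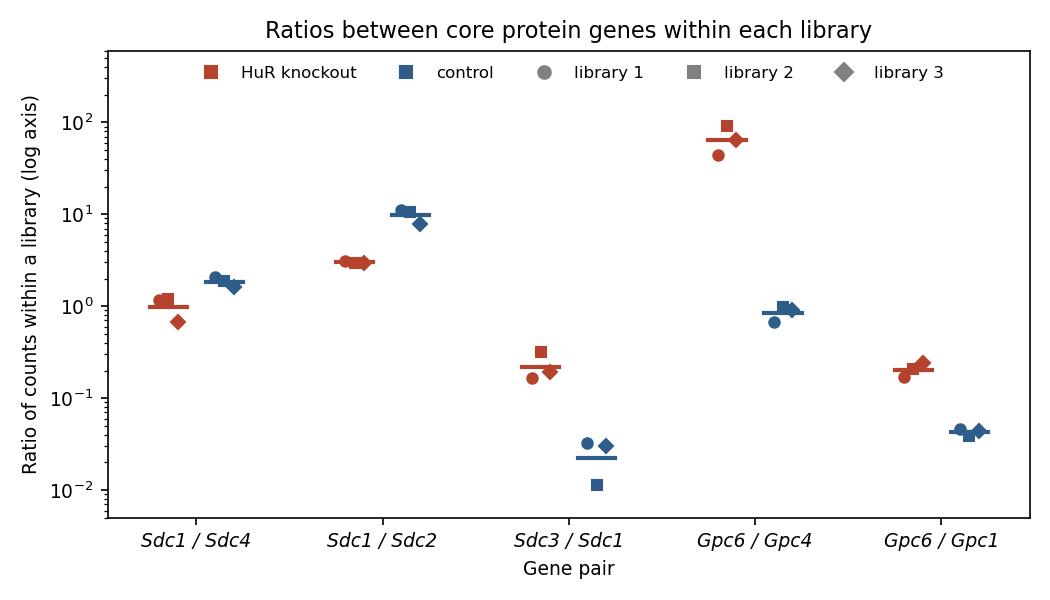
Ratio of the counts of 2 core protein genes within each library on a log axis, with HuR knockout in red left of control in blue, symbols for the library numbers and bars for geometric means. The ratio of Gpc6 to Gpc4 averages 63.7 in knockout and 0.843 in control, and no pair overlaps between the groups.

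The genes whose pattern lay closest to the outermost members were found by the root mean square difference of log2 CPM less the control mean, over the 6 libraries. For Sulf2, the 5 closest were Clec1a, Scara5, Col3a1, Cys1 and Antxr1, at differences of 0.33 to 0.51 on the log2 scale. Scara5, a scavenger receptor, was at 345, 602 and 1511 CPM in the 3 knockout libraries, against 1.83, 1.62 and 2.19 CPM in the 3 control libraries. Col3a1, a fibrillar collagen chain and one of the fibroblast markers, was at 216, 233 and 229 CPM in knockout, against 0.608, 0.737 and 0.851 CPM in control. Scara5 thus shared the high value of Sulf2 in knockout library 3, which Col3a1 lacked. Clec1a stood in a row that had been divided by 11 and was at 0 in every control library. Cys1 was at 0.0936, 0.0491 and 0 CPM in control. For both, the difference from Sulf2 depends on the prior count of 2 that was added before logs were taken.

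For Gpc4, the 5 closest were Tmem184a, Pard6b, Sh3gl2, Grb14 and Hebp1, at differences of 0.23 to 0.27. Like Gpc4, Tmem184a, Sh3gl2 and Hebp1 were under 1 CPM in every knockout library. These differences therefore depend in part on the prior count of 2. Pard6b, a subunit of the apical polarity complex of epithelial cells, was at 8.77, 5.78 and 7.04 CPM in the 3 knockout libraries, against 120, 126 and 114 CPM in the 3 control libraries. Grb14, an adaptor of receptor tyrosine kinases, was at 2.83, 1.72 and 2.39 CPM in knockout and 32.5, 28.4 and 28.3 CPM in control.

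The other genes of the pathway, and genes linked to it, were taken from 8 lists with 113 entries, of which 92 had enough counts to test. By edgeR's quasi-likelihood test with Benjamini-Hochberg adjustment over all genes, 41 rose, 9 fell and 42 did not pass, or 54.3% called. Over all genes tested 35.7% were called, with a median log2 fold change of 0.03. The lists, like the members, were chosen with earlier results of these data known. Nothing is therefore read from the share called, and the adjusted p-values below describe single genes. The lists do not hold the members. Those of ligands and of chondroitin and dermatan sulfate enzymes reach beyond heparan sulfate core proteins and the enzymes of their chains. Of the 41 that rose, 4 were under the filter's cut of 0.52 CPM in all 3 control libraries (Xylt1, Fgf1, Chst3 and Chst13), so their knockout counts alone brought them into the test. Hs3st3b1, Tfpi and Extl1, which rose, were under the cut in part of the control libraries. Fgf2, Fgf18 and Pdgfb, which fell, were under it in part of the knockout libraries. These genes too passed the filter through the group where they were higher. Without knockout library 3, 46 rose and 16 fell. Without control library 2, 24 rose and 5 fell, and without control library 3, 25 rose and 5 fell. These fits rest on fewer libraries, and over all genes tested 1511, 1166 and 1228 rose without control library 1, 2 and 3, against 2493 in the fit of all libraries.

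**Figure D4:**
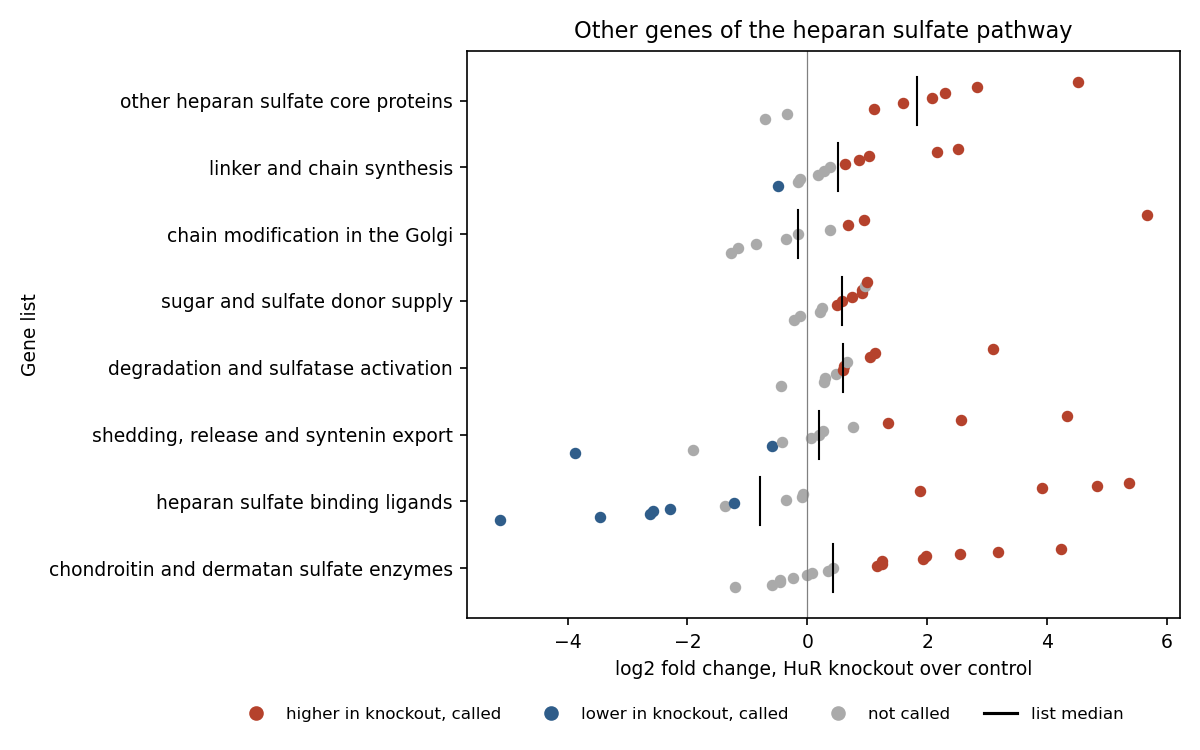
Log2 fold changes, HuR knockout over control, of the genes tested in each of the 8 lists, red where called higher, blue where called lower and grey where not called, with the list median as a black bar. Xylt1, at 0 in every control library, is not drawn but counts in its list's median. The median of the other core proteins lies at 1.83 and that of the heparan sulfate binding ligands at -0.78.

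Of 13 other core proteins that carry heparan sulfate always or at times, 8 were tested, of which 6 rose and 2 did not pass, with a median log2 fold change of 1.83. Gpc6, a glypican, was at 29.0, 31.4 and 46.7 CPM in knockout libraries, against 7.86, 8.30 and 9.24 CPM in control libraries, and rose 4.22-fold (log2 SE 0.224, adjusted p = 0.00122 by edgeR). Tgfbr3, the TGF-beta co-receptor betaglycan, was at 25.7, 32.9 and 101 CPM in knockout, against 1.50, 1.47 and 4.07 CPM in control, and rose 22.9-fold (adjusted p = 0.0046). Without knockout library 3 the fold of Tgfbr3 was 12.8, and without control library 3 it was 35.0. Nrp1, a receptor for semaphorins and VEGF, rose 7.11-fold (adjusted p = 0.00306). Col18a1, the collagen of basement membranes that gives rise to endostatin, was at 451 ± 137 CPM in knockout and 209 ± 20.8 CPM in control (SD, n = 3 each; adjusted p = 0.0125 by edgeR).

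Other core proteins were Sdc3, Spock2, Agrn and Cd44. Sdc3, named after its values were seen, was at 31.0, 63.0 and 37.9 CPM in the 3 knockout libraries, against 14.1, 4.03 and 8.75 CPM in the 3 control libraries (adjusted p = 0.0135). Agrn (agrin) was at 302 ± 152 CPM in knockout and 495 ± 55.5 CPM in control (adjusted p = 0.176 by edgeR), and Cd44 at 698 ± 79.1 CPM in knockout and 878 ± 45.4 CPM in control (SD, n = 3 each; adjusted p = 0.103 by edgeR). Without knockout library 3, Agrn and Cd44 passed as lower (adjusted p = 0.0263 and 0.0136), and DESeq2 called Cd44 lower too. Spock2, a testican, was at 5.78, 3.97 and 3.80 CPM in knockout libraries, against 2.57, 0.786 and 1.09 CPM in control libraries (adjusted p = 0.0459). Its call was lost in 6 settings: the rows as deposited (0.0535), no filter (0.05004), and without knockout library 1 (0.104) or 2 (0.0793) or control library 2 (0.136) or 3 (0.159). Without control library 3, 3 of the 6 calls were left, with Col18a1 at an adjusted p of 0.0539 and Sdc3 at 0.0614. Without control library 2 Col18a1 was at 0.0656.

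Of 12 genes of the linker and of chain synthesis, all were tested, of which 6 rose, 1 fell and 5 did not pass (median log2 fold change 0.51). Xylt2, a xylosyltransferase that starts the linker on the core protein, was at 56.6 ± 5.82 CPM in knockout and 27.8 ± 0.613 CPM in control (SD, n = 3 each), a 2.04-fold rise (adjusted p = 0.00201 by edgeR). Its relative Xylt1 was at 0.763, 1.23 and 1.16 CPM in knockout libraries, against 0 in all 3 control libraries. Taking 3 counts over the control group as the limit, it was at least 20.4-fold higher in knockout. The row of Xylt1 had been divided by 11, so that as deposited the bound would be 225-fold, and leaving out 1 library put it between 12.9-fold and 23.2-fold. Its knockout counts alone brought it past the filter, and with it at its bound the list median was the same.

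Pxylp1, a phosphatase that acts on xylose in the linker, rose 4.47-fold (adjusted p = 0.00397) and Ext2, a subunit of the chain polymerase, rose 1.83-fold (adjusted p = 0.0111). Ext1, the other polymerase subunit, was at 45.4 ± 4.10 CPM in knockout and 40.2 ± 3.10 CPM in control (SD, n = 3 each; adjusted p = 0.33 by edgeR). The single gene that fell, B4galt7, a galactosyltransferase of the linker, was at 22.6 ± 1.23 CPM in knockout and 31.8 ± 2.62 CPM in control (adjusted p = 0.0281 by edgeR). Its call was lost with the replicate block (adjusted p = 0.0604) and without any 1 of the libraries other than knockout library 3 (0.0503 to 0.113). Leaving out control library 2 or 3 put Ext2 at an adjusted p of 0.0624 or 0.0607, and in each of these fits 3 genes of the list rose.

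Of 16 genes that modify the chain in the Golgi, 9 were tested, of which 3 rose and 6 did not pass (median log2 fold change -0.16). Hs3st3b1, a 3-O-sulfotransferase, was at 13.4, 25.1 and 50.5 CPM in knockout libraries, against 0.515, 0.491 and 0.729 CPM in control libraries. It rose 51.1-fold (log2 SE 0.596, adjusted p = 0.00113 by edgeR), and 33.4-fold without knockout library 3. Its control counts were only 11, 10 and 12, so its knockout libraries brought it past the filter. The N-deacetylase and N-sulfotransferase genes Ndst1 and Ndst2 rose 1.60-fold and 1.94-fold (adjusted p = 0.0334 and 0.00458). The call of Ndst1 was lost without knockout library 2 (adjusted p = 0.0817) and without control library 1, 2 or 3 (0.12, 0.11 and 0.0944).

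The 6-O-sulfotransferases, whose products are the substrate of Sulf2, are given here after their values were seen. Hs6st1 was at 66.7, 58.7 and 70.9 CPM in knockout libraries, against 91.8, 78.1 and 79.7 CPM in control libraries (adjusted p = 0.0766 by edgeR). Hs6st2 was at 14.7, 11.6 and 2.94 CPM in knockout libraries, against 21.0, 22.6 and 21.8 CPM in control libraries (adjusted p = 0.127 by edgeR). Both were lower in every knockout library than in every control library, as were 27.9% of all genes tested. Neither passed the test over all libraries. Without knockout library 3 both passed as lower (adjusted p = 0.0186 and 0.00477), DESeq2 called Hs6st1 lower (0.0399), and without knockout library 1 Ndst3 passed as lower (0.0477). Hs2st1, a 2-O-sulfotransferase gene, passed as higher without knockout library 3 (0.00404). The ratio of Sulf2 to Hs6st1 counts within a library was 4.27, 4.19 and 9.75 in knockout, against 0.0133, 0.0132 and 0.0198 in control. Hs6st1 itself was 1.27 times lower in knockout, so this ratio mostly restates the Sulf2 values.

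Of 12 entries for the supply of activated sugars and sulfate, 11 were tested, of which 6 rose and 5 did not pass (median log2 fold change 0.57). Impad1, a Golgi phosphatase that clears the by-product of sulfation and is also called Bpnt2, was at 137 ± 23.6 CPM in knockout and 72.9 ± 4.68 CPM in control (SD, n = 3 each), a 1.88-fold rise (adjusted p = 0.00605 by edgeR). The sulfate donor transporters Slc35b2 and Slc35b3 rose 2.00-fold and 1.88-fold (adjusted p = 0.0103 and 0.0106), and Ugp2, which makes UDP-glucose, rose 1.49-fold (adjusted p = 0.00787). Without control library 1, 2 and 3, 3, 1 and 2 genes of the list rose, and without knockout library 1 or 2, or with the replicate block, 4 did. The folds of those named moved little, with Ugp2 at log2 0.52 and Slc35b2 at 0.94 without control library 2, beside 0.57 and 1.00 in the fit of all libraries. Ugp2 and Slc35b2 were lost without control library 2 (adjusted p = 0.0584 and 0.0553) and without control library 3 (0.0564 and 0.0562), and Slc35b3 without control library 1 (0.0514) or 2 (0.0611). Slc35d1, also called higher (adjusted p = 0.0497 by edgeR), was lost without any 1 of the libraries other than knockout library 3.

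Of 11 genes of chain degradation and sulfatase activation, 10 were tested, of which 5 rose and 5 did not pass (median log2 fold change 0.60). Arsg, a lysosomal sulfatase that removes 3-O-sulfate groups, was at 5.94, 6.91 and 16.4 CPM in knockout libraries, against 1.12, 1.28 and 0.972 CPM in control libraries. It rose 8.60-fold (adjusted p = 0.00394 by edgeR), and 5.68-fold without knockout library 3. The lysosomal enzyme genes Ids, Naglu and Hgsnat rose 2.19-fold, 2.07-fold and 1.52-fold (adjusted p = 0.0073, 0.00714 and 0.00585). Sumf2, a relative of the enzyme that activates sulfatases, was the other gene called (1.52-fold, adjusted p = 0.00948), while the activator itself, Sumf1, was at 28.1 ± 5.57 CPM in knockout and 22.8 ± 1.11 CPM in control (SD, n = 3 each; adjusted p = 0.217 by edgeR). The call of Sumf2 was lost without control library 2 (0.0645) or 3 (0.0624). Without knockout library 3, Gusb was called higher (adjusted p = 0.00217) and Sgsh lower (0.00581).

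Of 13 genes that release core proteins from the cell or export them with syntenin, 11 were tested, of which 3 rose, 2 fell and 6 did not pass (median log2 fold change 0.19). Notum, a secreted lipase known to inactivate Wnt proteins and first described as cutting glypicans from their anchor, was at 78.0, 93.9 and 166 CPM in knockout libraries, against 6.60, 4.03 and 6.08 CPM in control libraries. It rose 20.2-fold (log2 SE 0.373, adjusted p = 0.000635 by edgeR). Adam10, a membrane protease that sheds surface proteins, was at 211 ± 30.5 CPM in knockout and 83.1 ± 1.87 CPM in control (SD, n = 3 each), a 2.54-fold rise (adjusted p = 0.00111 by edgeR). The other gene called higher, Adamts1 (adjusted p = 0.0131), was lost without any 1 of the control libraries (0.0539 to 0.059).

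Sdcbp2, which encodes syntenin-2, was at 2.07, 1.32 and 4.59 CPM in knockout libraries, against 47.6, 41.6 and 26.8 CPM in control libraries. It was 14.6 times lower in knockout (adjusted p = 0.0022 by edgeR), and 22.9 times lower without knockout library 3. Sdcbp, which encodes the syntenin that binds syndecan tails, was at 178 ± 25.0 CPM in knockout and 148 ± 8.25 CPM in control (SD, n = 3 each; adjusted p = 0.186 by edgeR). Pdcd6ip, the syntenin partner ALIX, was 1.50 times lower in knockout (adjusted p = 0.0102), and its call was lost without control library 2 (0.0523), when 1 gene of the list fell. DESeq2 called 4 lower, adding Mmp9 and Mmp14.

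Of 19 ligands that bind heparan sulfate, 14 were tested, of which 4 rose, 6 fell and 4 did not pass (median log2 fold change -0.78). Tfpi, an inhibitor of tissue factor held at cell surfaces in part by heparan sulfate, was at 28.9, 33.1 and 47.9 CPM in knockout libraries, against 1.08, 0.491 and 1.09 CPM in control libraries, a 41.2-fold rise (adjusted p = 0.000428 by edgeR). Control library 2 lay under the filter's cut, so Tfpi passed it through its knockout libraries. Of the FGF genes tested, 1 was called higher and 2 lower. Fgf1 had 15, 97 and 36 counts in knockout libraries, against 3, 2 and 0 counts in control libraries, so it entered the test through its knockout counts alone and no fold is given. Its call was lost without control library 2 (adjusted p = 0.0502). Fgf2 had 3, 1 and 9 counts in knockout, against 66, 45 and 49 counts in control, and fell (adjusted p = 0.0102 by edgeR). Fgf18 had 10, 2 and 2 counts in knockout, against 57, 25 and 12 counts in control (adjusted p = 0.0445 by edgeR), and its call was lost in 6 settings (0.0519 to 0.149). Fgf2 and Fgf18 were named after their values were seen, and both passed the filter through their control counts.

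Hbegf and Pdgfb had the smallest p among the ligands that fell. Hbegf, a heparin-binding ligand of the EGF receptor, was at 30.1, 15.9 and 20.6 CPM in knockout libraries, against 164, 115 and 132 CPM in control libraries, and was 6.18 times lower (adjusted p = 0.00107 by edgeR). Pdgfb was at 1.58, 0.441 and 0.551 CPM in knockout, against 39.1, 25.9 and 25.6 CPM in control. It was 35.0 times lower (adjusted p = 0.00099 by edgeR), and 60.6 times lower without knockout library 1. Knockout library 2 lay under the filter's cut for Pdgfb, so its control libraries brought it into the test. Pdgfa, the other PDGF gene of the list, was at 60.3 ± 12.4 CPM in knockout and 63.0 ± 2.02 CPM in control (SD, n = 3 each; adjusted p = 0.798 by edgeR). Without control library 1, 2 or 3, 2, 1 and 2 ligands rose, and without control library 3, 3 fell.

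The linker on which heparan sulfate is built also carries chondroitin and dermatan sulfate. Of 17 enzymes of those chains, all were tested, of which 8 rose and 9 did not pass (median log2 fold change 0.44). The chondroitin 4-O-sulfotransferase gene Chst11 rose 5.82-fold (adjusted p = 0.000635 by edgeR), to 34.2 ± 4.54 CPM in knockout, against 5.87 ± 1.26 CPM in control (SD, n = 3 each). Its relative Chst13 had 66, 80 and 45 counts in knockout libraries, against 2, 3 and 5 counts in control libraries, so it entered the test through its knockout counts alone. The polymerising genes Chpf2 and Chsy3 rose 2.38-fold and 3.81-fold (adjusted p = 0.00189 and 0.00293). Without knockout library 3, Arsb passed as higher (adjusted p = 0.023) and Chsy1 and Dsel as lower (0.0164 and 0.0491). DESeq2 called Arsb higher (0.0441) and Chsy1 lower (0.0312).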

How the data were processed

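RNA from 3 HuR knockout and 3 control libraries of MOC2 cells was analysed from 1 table. The authors deposited whole-number counts per gene symbol; per the submitters' processing notes, which state no roles, hg38, featureCounts and STAR 2.7.1a were used. How strand was treated and which annotation served is not given in the sources used here, so reads shared with overlapping, antisense or near-identical genes could not be checked. Libraries were grouped by their titles.

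In the 1704 rows at 0 in control library 1 with a count elsewhere, every value was a multiple of 11. These rows were divided by 11; no label describes their origin. No member stood in such a row. The fit used edgeR 4.0.16 under R 4.3.3 (low counts removed by filterByExpr, TMM, robust dispersions, quasi-likelihood test, Benjamini-Hochberg, threshold 0.05). Standard errors were derived from each fold change and its F statistic. CPM use TMM-scaled totals. No 2 libraries of a group agreed within sampling noise (chi-square per degree of freedom 8.64 or more). The procedure was tested on simulated data.

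The members and lists were chosen with earlier results of these data known. Named are all members, up to 4 called genes per list with the smallest p, the 5 genes closest in pattern to the outermost members, Elavl1, and cell type markers; others are said to be picked after their values were seen, or are named because a call changed. Alternatives were DESeq2 1.42.0, limma-voom (limma 3.58.1), other filters and scalings, the rows as deposited or left out, a replicate block, and each library left out. P-values rest on the spread between libraries, which may be technical.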

Additional observations from a re-analysis of the deposited data

How the results depend on the processing

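Fold changes kept their sign under all 15 alternatives for 7 of the 8 members tested; the exception was Sdc4, which was lower without knockout library 3. Of the 31 list genes with the smallest p in their list, none changed sign and 8 lost a call, each time with 1 library left out (adjusted p 0.0502 to 0.12). List genes of larger p lost calls elsewhere too. With the replicate block these were B4galt7, Papss1, Slc35d1 and Bmp4, and with limma-voom Extl1, Slc35d1 and Cxcl12. With the rows as deposited they were Spock2 and Fgf18, and without a filter Spock2 and Slc35d1. Over all genes, 2493 rose and 1899 fell, and with 1 library left out 1166 to 3178 rose and 1130 to 2843 fell. Members with a log2 fold change below -1 numbered 1, and 2 without a filter, which lets in Gpc3. They also numbered 2 without control library 3, where Sdc1 was at -1.03 (range 1 to 2). With DESeq2, 15 list genes fell in place of 9, 1 each among core proteins, Golgi modification and chondroitin enzymes and 4 in release. With 1 library left out, 24 to 46 list genes rose and 5 to 16 fell. By list, those that rose numbered 3 to 6 for core proteins, 3 to 6 for the linker, 1 to 8 for supply and 1 to 4 for ligands, and those that fell 0 to 2, 0 to 1, 0 to 0 and 3 to 6. Those that fell were 0 to 2 for Golgi modification, 0 to 1 for degradation, 1 to 3 for release and 0 to 2 for chondroitin enzymes. With few counts, Gpc3 and Sulf1 set limits only.

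Whether the replicate numbers pair the samples cannot be settled from 3 libraries per group. Deviations from the group means correlated at -0.05, 0.26 and 0.02 for libraries 1, 2 and 3 of the groups. The value for library 2 was the highest of any pair, but not every library correlated best with its own number. With the replicate block 1976 genes rose and 1615 fell. In the linker list 0 then fell, in supply 4 rose in place of 6, among ligands 3 rose in place of 4, and in release 3 fell in place of 2. The medians of all genes under other scalings lay within 0.1 of each other on the log2 scale.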
